A study of Mus musculus with 6 samples.

Results

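Tissue inhibitors of metalloproteinases (Timps), matrix metalloproteinases (Mmps) and Adamts proteases were followed in astrocytes sorted from injured and uninjured mouse cortex. The set holds 10 genes: the inhibitors Timp1, Timp2, Timp3 and Timp4, the proteases Mmp2, Mmp3, Mmp9 and Mmp14, and Adamts1 and Adamts4. Its members were chosen from earlier results of this same contrast, so every difference given for them is a description and not a test. Each gene was read through all probe sets (groups of array probes for 1 transcript region) that the platform annotation assigns to it alone. This gave 24 probe sets of 45037, and 10 of 18193 genes.

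The study concerned galectins 1 and 3 after brain lesions and used 6 expression arrays, each from a pool of green fluorescent cells of about 15 mice. The 3 reactive arrays carried cells of TgN(hGFAP-EGFP) GFEA mice, where fluorescence is driven from the human GFAP promoter. These cells were sorted at day 5 from the grey matter of the somatosensory cortex around a stab lesion with a depth of 0.7 mm and a length of 1 to 1.2 mm. The 3 non-reactive arrays carried cells of the same region from uninjured Tg(Aldh1l1-eGFP)OFC789Gsat mice. All animals were FVB/N and 2 to 3 months old, and their sex was not determined. The protocol text shared by all samples also describes BrdU labelling, without saying which animals received it. Injury and reporter line cannot be told apart, because each group came from 1 line only. In such pooled cells, fewer cells of a type and less RNA per cell cannot be told apart either.

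Mmps and Adamts proteases are zinc enzymes that cut the extracellular matrix, and Timps block them by binding the active site. Timp2 also forms a complex with the membrane enzyme Mmp14 that activates secreted Mmp2, while Timp3 is held in the matrix and additionally inhibits Adam17 and several Adamts enzymes. In cortex, Adamts1 and Adamts4 cut the hyalectans, the chondroitin sulphate proteoglycans of the loose and perineuronal matrix around neurons.

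All values are log2 expression values, and a difference is the reactive mean minus the non-reactive mean. The median over the means of all probe sets was 4.74, and the deposited table gives no detection calls, so probe sets with a mean below that median are called dim here. Of the 24 probe sets, 6 had a mean below it, and 18 lay at or above it. The median difference over the 24 was 0.08, beside 0.10 over all 45037 probe sets. The sorted cells carried astrocyte markers in both groups. Some markers of other cells were also bright in both. The myelin gene Mbp read 13.28 to 13.94, the neuronal gene Rbfox3 11.41 to 12.52 and the microglial receptor gene Csf1r 11.72 to 12.52. Other markers of the same cell types read far lower, with Mog at 4.18 to 7.58, Slc17a7 at 4.29 to 5.59 and Itgam at 2.82 to 4.54. Single bright markers therefore do not give the amount of other cells.

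The promoters of the 4 inhibitors are shown because these genes differed in opposite directions between the groups while belonging to 1 family. The windows run from 250 bases before to 50 bases after the annotated start (RefSeq, GRCm38.p6) and are written along the gene. Timp1 lies on the plus strand at chrX:20869916-20870215, Timp2 on the minus strand at chr11:118355362-118355661, Timp3 on the plus strand at chr10:86300162-86300461 and Timp4 on the minus strand at chr6:115252156-115252455. Capitals mark matches to the GC box letters GGGCGG on either strand.
Timp1: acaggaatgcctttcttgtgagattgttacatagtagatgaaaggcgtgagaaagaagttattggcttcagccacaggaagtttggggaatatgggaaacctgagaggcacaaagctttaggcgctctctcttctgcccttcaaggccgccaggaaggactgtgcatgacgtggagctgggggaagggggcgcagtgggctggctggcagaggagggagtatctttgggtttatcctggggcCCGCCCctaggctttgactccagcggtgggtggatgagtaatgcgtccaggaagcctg
Timp2: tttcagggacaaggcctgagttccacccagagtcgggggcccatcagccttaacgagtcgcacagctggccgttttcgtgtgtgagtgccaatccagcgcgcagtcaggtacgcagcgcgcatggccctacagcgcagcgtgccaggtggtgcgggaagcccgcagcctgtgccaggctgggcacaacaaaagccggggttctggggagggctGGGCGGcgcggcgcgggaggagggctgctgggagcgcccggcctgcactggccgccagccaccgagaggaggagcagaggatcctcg
Timp3: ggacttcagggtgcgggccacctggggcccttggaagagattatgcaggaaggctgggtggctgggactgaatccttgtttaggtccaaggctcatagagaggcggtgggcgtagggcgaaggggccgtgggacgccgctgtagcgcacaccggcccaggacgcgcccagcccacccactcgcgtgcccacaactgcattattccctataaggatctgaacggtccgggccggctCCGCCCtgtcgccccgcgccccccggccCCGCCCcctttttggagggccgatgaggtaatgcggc
Timp4: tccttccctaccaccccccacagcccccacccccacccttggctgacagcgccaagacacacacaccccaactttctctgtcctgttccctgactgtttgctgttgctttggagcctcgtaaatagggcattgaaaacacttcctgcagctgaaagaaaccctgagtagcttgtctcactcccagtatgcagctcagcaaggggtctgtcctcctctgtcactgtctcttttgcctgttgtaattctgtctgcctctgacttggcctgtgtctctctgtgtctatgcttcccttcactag

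The windows of Timp2 and Timp3 were rich in CpG pairs, at 25 and 24, with 68.7% and 67.0% of bases being G or C. Timp1 had 8 CpG pairs and 55.0%, and Timp4 had 2 and 53.3%. Over all 32851 promoter windows of the RefSeq table, the median was 7 pairs and 52.7%. The inhibitors with a CpG-rich window therefore included 1 gene with higher and 1 with lower values in the reactive arrays. GC boxes stood once in Timp1 and in Timp2, 2 times in Timp3 and nowhere in the Timp4 window, and 35.7% of all windows held at least 1. The AP-1 letters TGANTCA matched none of these 4 windows, nor did the TATA box letters TATAAA or the STAT letters TTCNNNGAA. All windows held them in 7.8%, 13.6% and 8.3% of cases, with both strands searched.

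The table held windows for 7 of the 10 genes, and Mmp2, Mmp9 and Adamts4 were without an entry. Mmp3 had the only AP-1 match among the 7, TGAGTCA, beginning 46 bases before the start. It also had a match to the TATA box letters, beginning only 7 bases before the annotated start. Adamts1 also had a TATA box, 32 bases before the start, and 3 GC boxes, and Mmp14 had 2 GC boxes. A match describes letters only and is no evidence of a bound factor. Likewise, a window without a match may still hold a site with other letters, since only the exact patterns were searched.

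Timp3 fell in the reactive arrays, and Timp4 was lower, while Timp1 and Timp2 were higher. None of the 11 protease probe sets separated the groups. Among the 13 Timp probe sets, 3 had all reactive arrays above all non-reactive arrays, and 4 had all of them below. Over all probe sets, 12.8% were separated upwards and 8.08% downwards. With the whole-table limma fit and a Benjamini-Hochberg adjusted p under 0.05, 1 of the 24 passed, a Timp3 probe set, in the downward direction. Of all probe sets, 0.266% passed upwards and 0.584% downwards. Nothing is read from these shares, since the set was chosen with this contrast known.

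**Figure D1:**
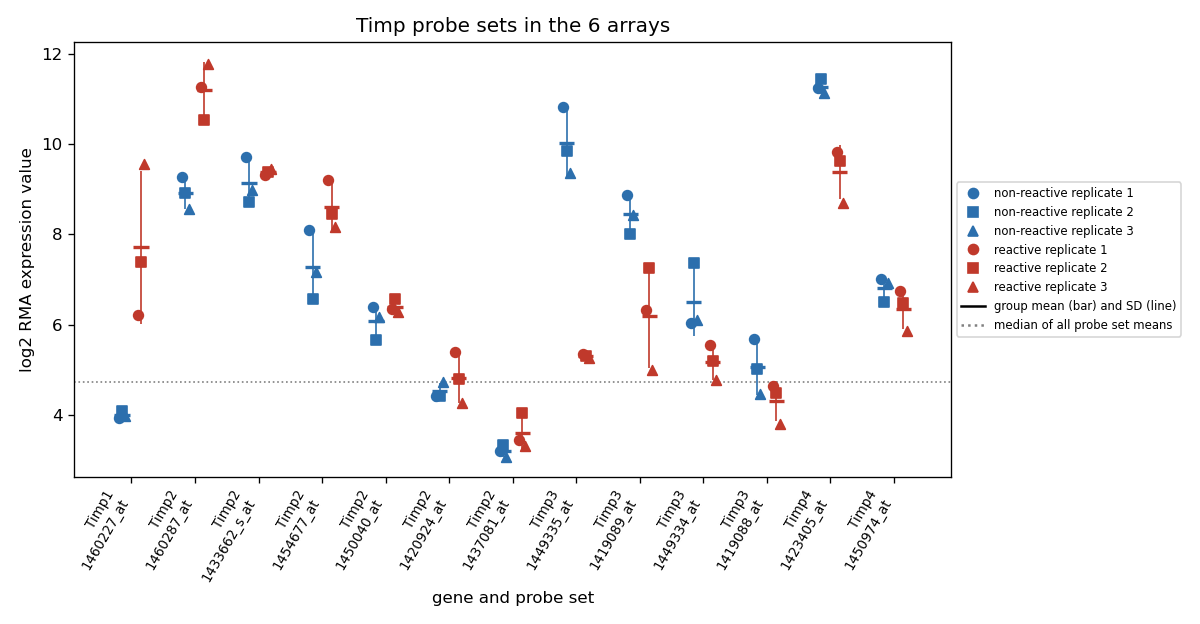
Log2 expression value (vertical axis) of each of the 13 Timp probe sets (horizontal axis) in the 3 non-reactive (blue) and 3 reactive (red) arrays, with the group mean as a bar, the SD as a line and the median of all probe set means as a dotted line. Timp1 is higher in the reactive arrays with a wide spread, Timp3 is lower to an extent that depends on the probe set, and the 6 Timp2 probe sets disagree in size.

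Timp3, the matrix-bound inhibitor, was measured by 4 probe sets. Its brightest, 1449335_at, read 10.83, 9.84 and 9.37 in the non-reactive arrays and 5.36, 5.32 and 5.27 in the reactive arrays. The groups lay far apart, and the reactive arrays were almost equal to each other. The means were 10.01 ± 0.75 and 5.31 ± 0.04 (SD, n = 3), so Timp3 fell 26.0-fold at this probe set, by 4.70 on the log2 scale (SE 0.38, 95% interval -5.60 to -3.80).

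The next Timp3 probe set, 1419089_at, read 8.88, 8.01 and 8.43 in the non-reactive and 6.33, 7.26 and 4.99 in the reactive arrays. Here the groups were also separate, but the reactive arrays spread over more than 2 log2 units, with replicate 3 the lowest. The difference was -2.25 (SE 0.57, 95% interval -3.61 to -0.88). At 1449334_at it was -1.33 (SE 0.41), again without overlap. The dimmest probe set, 1419088_at, differed by -0.74 (SE 0.38, 95% interval -1.64 to 0.17), and its groups overlapped. All 4 differences were thus below 0, and their size ranged from 1.67-fold to 26.0-fold, so the size differed between probe sets. The mean of the 4 probe sets differed by -2.25.

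The call for 1449335_at was lost without reactive replicate 1, where the difference was -4.72, and without non-reactive replicate 1, 2 or 3, where it was -4.29, -4.78 and -5.02. It was also lost with the replicate number as a block, at -4.70. The difference itself stayed between -5.02 and -4.29 in all 14 alternatives. The variance models, the filters and the balanced block cannot change it, and it was -4.70 in each of them. Only the other scalings and the left-out arrays could move it.

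Timp4, an inhibitor with a restricted tissue range that includes brain, was bright. Probe set 1423405_at read 11.23, 11.45 and 11.13 in the non-reactive and 9.83, 9.63 and 8.70 in the reactive arrays. Every reactive array was below every non-reactive array, and reactive replicate 3 was again the lowest. The means were 11.27 ± 0.16 and 9.38 ± 0.60 (SD, n = 3), a difference of -1.88 (SE 0.33, 95% interval -2.67 to -1.10), or 3.69-fold lower. The second Timp4 probe set, 1450974_at, differed by -0.45 (SE 0.30, 95% interval -1.16 to 0.25) with overlapping groups.

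Astrocyte markers were also lower in the reactive arrays. The mean over the 9 markers lay between 10.58 and 10.94 in the non-reactive and between 9.57 and 9.94 in the reactive arrays. Of these, Sox9, an astrocyte transcription factor, fell by 2.31, the glutamate transporter gene Slc1a3 fell by 1.62 and the connexin gene Gja1 fell by 1.38 (limma adjusted p of 0.0286, 0.0475 and 0.0492). Gfap rose by 3.12 (limma adjusted p of 0.0492), in cells sorted through a GFAP promoter. The part of this shift in the lower Timp3 and Timp4 values was not tested. The array's 3′ minus 5′ controls moved with the groups as well, with 18S rRNA in the opposite direction to Pcx, Gapdh and Actb. The 3′ minus 5′ difference of the array's Pcx control was 1.15 to 1.66 for reactive and 3.42 to 3.50 for non-reactive cells. In the same order, Gapdh gave 3.85 to 4.64 and 4.77 to 5.74, Actb 2.53 to 4.27 and 4.48 to 5.37, and 18S rRNA 0.60 to 1.12 and -1.55 to -0.92. The part of these control differences in the disagreement between probe sets of 1 gene was not tested.

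Timp1, the inducible inhibitor, is low in healthy brain and known to rise in astrocytes after injury. Its single probe set, 1460227_at, read 3.94, 4.08 and 3.99 in the non-reactive and 6.22, 7.38 and 9.55 in the reactive arrays. All reactive arrays were above all non-reactive arrays, and replicate 3 was far above the other reactive arrays. The means were 4.01 ± 0.07 and 7.72 ± 1.69 (SD, n = 3), a difference of 3.71 (SE 0.78, 95% interval 1.86 to 5.57), or 13.1-fold. The non-reactive values lay below the median of all probe sets, so the size is uncertain, and the probe set did not pass the whole-table threshold. Without reactive replicate 3 the difference was 2.80, and without reactive replicate 1 it was 4.46.

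Reactive replicate 3 stood apart in markers of vessels and connective tissue. The mean over 12 markers of pericytes, smooth muscle and fibroblasts was 6.50 in that array, 4.82 and 4.86 in the other reactive arrays, and 4.88 to 5.12 among non-reactive arrays. The collagen gene Col3a1 read 7.70 in replicate 3 and 3.52 and 3.12 in the other reactive arrays, with 2.71 to 3.18 in the non-reactive arrays. Not every marker was high there: the pericyte genes Pdgfrb and Rgs5 read 6.84 and 6.69 in replicate 3. Non-reactive arrays read 8.18 to 9.41 and 6.76 to 7.78. Both genes were separated downwards, at -2.24 and -0.98, although the 4 Rgs5 probe sets ran from -0.98 to 0.49. Of the 12 markers, 4 had a mean below 4.74. The mean over 9 endothelial markers was 6.62 in the same array against 5.66 and 5.16 in the other reactive arrays. Non-reactive arrays gave 4.84 to 5.36, and 3 of the 9 markers were dim.

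Markers of microglia and macrophages were higher in the reactive arrays, whereas those of monocytes and neutrophils were mixed. The mean over 8 monocyte and neutrophil markers ran from 5.54 to 6.25 for reactive and from 4.56 to 4.88 for non-reactive cells, and reactive replicate 3 was the highest. Of the 8, 4 were dim, 5 differed by more than 0, and the median difference was 0.40. Cd52 rose by 3.52 and Plac8 by 3.31 (limma adjusted p of 0.0231 and 0.0161), whereas the chemokine receptor gene Ccr2 differed by -0.03. The neutrophil granule genes Ngp, Ltf and Camp differed by -0.24, -0.16 and 0.09, and S100a8 and S100a9 by 1.40 and 0.71. The mean over 14 microglia and macrophage markers ran from 9.28 to 9.65 and from 7.33 to 7.67. Of the 14, 6 were called higher, beside 71 of all 18193 genes. Among them were Cd68 by 4.12, C1qc by 3.81 and C1qa by 3.76 (limma adjusted p of 0.0424, 0.0265 and 0.0170). All 14 differed by more than 0, but groups overlapped for Cx3cr1 at 0.04, Csf1r at 0.42, Itgam at 0.54 and P2ry12 at 0.84. The part of these cells in the Timp1 values was not tested.

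**Figure D2:**
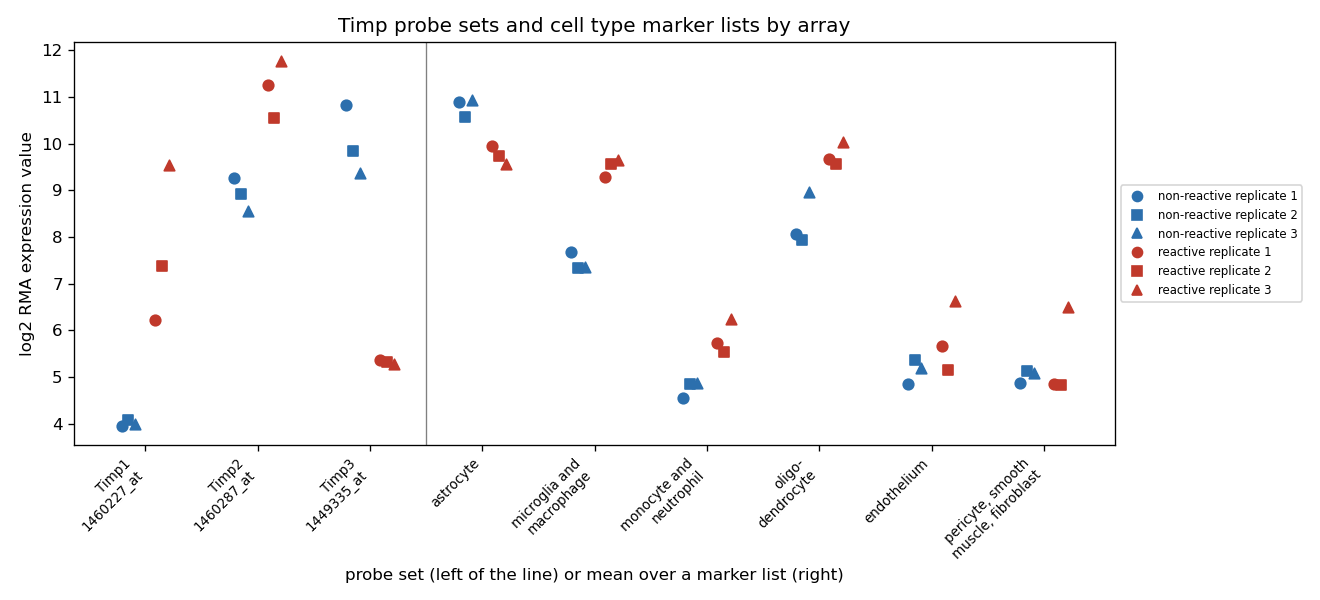
Log2 expression value (vertical axis) of 1 probe set each of Timp1, Timp2 and Timp3, left of the line, and the mean over 6 cell type marker lists, right of it, with non-reactive arrays in blue and reactive arrays in red. Reactive replicate 3 (red triangle) is the highest of all arrays for Timp1 at 9.55 and for the list of pericyte, smooth muscle and fibroblast markers at 6.50.

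Timp2, the most widely expressed inhibitor, was read by 6 probe sets that disagreed. The brightest, 1460287_at, read 9.27, 8.92 and 8.55 in the non-reactive and 11.25, 10.54 and 11.78 in the reactive arrays. The groups did not overlap. The means were 8.91 ± 0.36 and 11.19 ± 0.62 (SD, n = 3), a difference of 2.28 (SE 0.37, 95% interval 1.40 to 3.15), or 4.84-fold. Probe set 1454677_at was separated as well, at 8.09, 6.58 and 7.17 in the non-reactive and 9.19, 8.44 and 8.17 in the reactive arrays, with a difference of 1.32 (SE 0.45).

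The other Timp2 probe sets had overlapping groups and differences of 0.24 to 0.40. They included 1433662_s_at, which was bright, at 9.14 ± 0.51 in the non-reactive and 9.37 ± 0.07 in the reactive arrays (SD, n = 3), with a difference of 0.24 (SE 0.29, 95% interval -0.45 to 0.93). The mean over all 6 probe sets differed by 0.81. All 6 differences were above 0. Probe set 1460287_at passed the whole-table threshold in only 2 alternatives, with a variance trend and without dim probe sets. Neither of these can change the difference of 2.28.

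**Figure D3:**
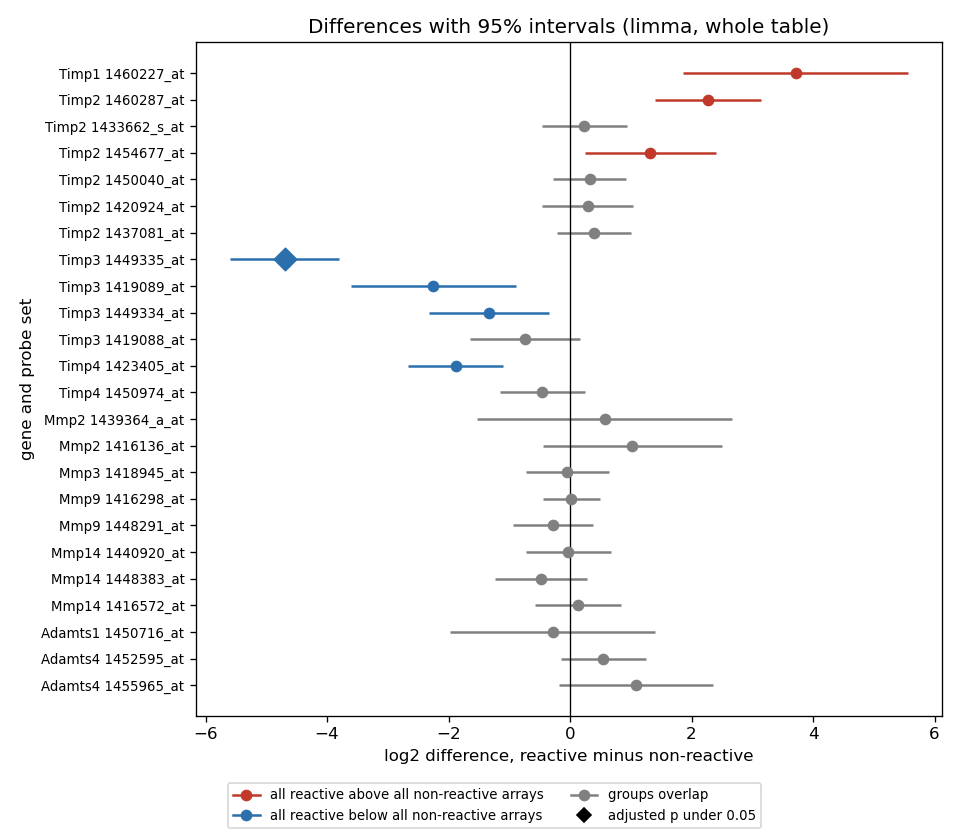
Log2 difference (horizontal axis), reactive minus non-reactive, of the 24 probe sets with their 95% intervals, in red or blue where reactive and non-reactive arrays were fully separated and in grey where they overlapped. The coloured probe sets all belong to Timps, the diamond marks the Timp3 probe set at -4.70, and the grey ones include all 11 protease probe sets.

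The secreted metalloproteinases did not separate the groups. Mmp2, a gelatinase of connective tissue and vessels, was read by 2 probe sets. At the brighter, 1439364_a_at, reactive replicate 1 stood out at 8.35, while the other reactive arrays read 5.25 and 5.01 and the non-reactive arrays 6.09, 5.69 and 5.11. The same array was the highest at 1416136_at, with 6.51 against 3.97 and 5.17 in the other reactive arrays and 4.37, 3.73 and 4.47 in the non-reactive arrays. Both probe sets thus placed the high Mmp2 level in 1 reactive array. The differences were 0.57 (SE 0.88, 95% interval -1.52 to 2.67) and 1.03 (SE 0.62, 95% interval -0.45 to 2.51). Without reactive replicate 1 they were -0.50 and 0.38, so the direction at the brighter probe set rested on that array. For the collagen genes Col1a1 and Col1a2, reactive replicate 1 read 4.53 and 5.01. Reactive replicate 3, the array with the highest Timp1 value, read 8.22 and 8.54. Non-reactive arrays read 4.50 to 6.33 and 4.79 to 5.17. The part of connective tissue cells in the Mmp2 values was not tested.

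Mmp3, a stromelysin, and Mmp9, a gelatinase of neutrophils and injured vessels, lay near the median of all probe sets in every array. Mmp3 read 4.003, 4.84 and 4.74 in the non-reactive and 4.69, 4.27 and 4.50 in the reactive arrays, a difference of -0.04 (SE 0.28, 95% interval -0.72 to 0.64). The brighter Mmp9 probe set, 1416298_at, read 5.01, 5.05 and 4.93 in the non-reactive and 5.08, 5.17 and 4.81 in the reactive arrays. These values overlapped within a narrow range, and the difference was 0.02 (SE 0.19, 95% interval -0.44 to 0.49). The other Mmp9 probe set differed by -0.27 (SE 0.28). A change of Mmp9 by the size seen for Timp1 or for the brightest Timp3 probe set lay outside both intervals, but probe sets near background can understate a change.

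Mmp14, the membrane-anchored enzyme, was read by 3 probe sets with means between 5.16 and 5.64 in either group. The differences were -0.03 (SE 0.29), -0.47 (SE 0.32) and 0.13 (SE 0.30), and the groups overlapped in each. The 95% intervals together ran from -1.23 to 0.84. Of the partners in the activation of Mmp2 by Timp2 and Mmp14, neither Mmp14 nor Mmp2 was separated between the groups. For Timp2, 2 of 6 probe sets were separated upwards, beside 12.8% of all probe sets, and the other 4 overlapped. Both Mmp2 intervals, -1.52 to 2.67 and -0.45 to 2.51, contained the largest Timp2 difference of 2.28, so no contrast between the partners is read from this.

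Adamts1, a protease of hyalectans that is induced by inflammation, read 6.69, 7.30 and 7.30 in the non-reactive and 7.97, 5.13 and 7.34 in the reactive arrays. Reactive replicate 2 was the lowest and replicate 1 the highest of all arrays. The difference was -0.28 (SE 0.71, 95% interval -1.97 to 1.40) and became 0.56 without reactive replicate 2, so no direction could be given.

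Adamts4, an aggrecanase that oligodendrocytes also express, was higher on average at both probe sets. At 1452595_at it read 5.16, 6.03 and 5.92 in the non-reactive and 6.01, 6.49 and 6.25 in the reactive arrays. At 1455965_at it read 4.27, 4.76 and 6.00 in the non-reactive and 5.70, 5.71 and 6.89 in the reactive arrays. The groups overlapped at both, since 1 non-reactive array reached the lowest reactive values. The differences were 0.55 (SE 0.29, 95% interval -0.15 to 1.25) and 1.09 (SE 0.53, 95% interval -0.18 to 2.36). The mean over 9 oligodendrocyte markers ran from 9.56 to 10.03 for reactive and from 7.94 to 8.97 for non-reactive cells. Ermn, a myelin-forming cell marker, rose by 2.17 (limma adjusted p of 0.0363). Of the 9 markers, 8 differed by more than 0, with 5 separated upwards and 1 downwards. The marker separated downwards was Mbp, the brightest of the list, at -0.49, although its 8 probe sets did not all share that direction. The part of oligodendrocytes in the Adamts4 values was not tested.

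**Figure D4:**
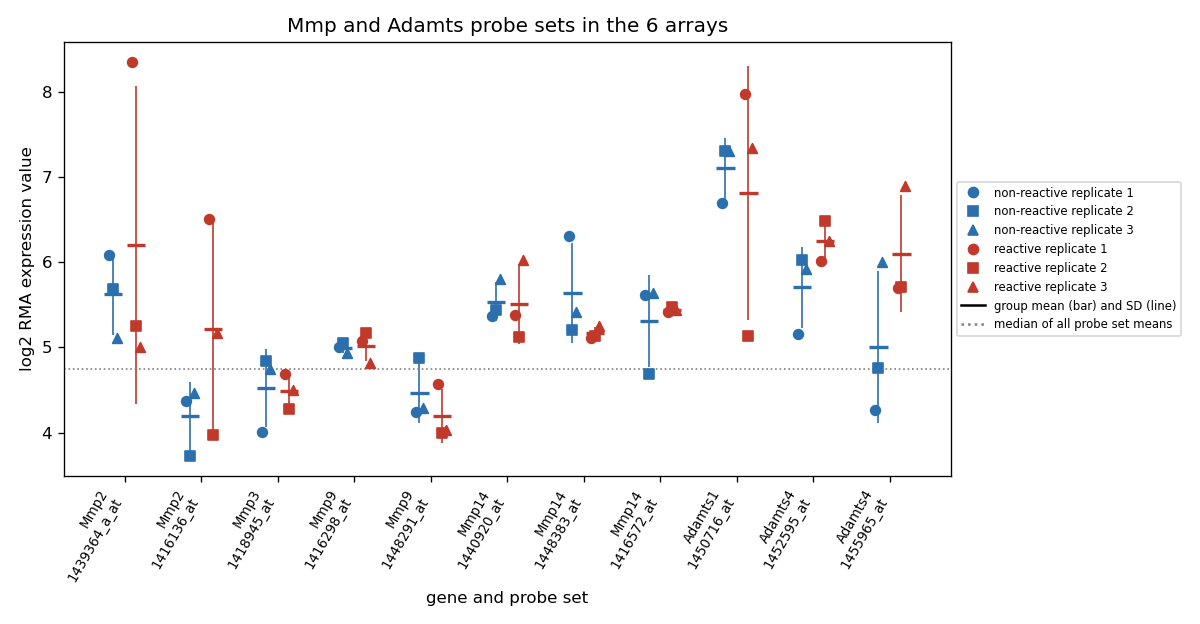
Log2 expression value (vertical axis) of each of the 11 Mmp and Adamts probe sets (horizontal axis) in the non-reactive (blue) and reactive (red) arrays, with the group mean as a bar, the SD as a line and the median of all probe set means as a dotted line. The groups overlap everywhere, and single reactive arrays stand out for Mmp2 (replicate 1, at 8.35 and 6.51) and Adamts1 (replicate 2, at 5.13).

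The wider protease system was read from 5 lists of 87 genes, 1 probe set a gene, of which 76 were measured. With limma, 0 of the 76 passed the Benjamini-Hochberg threshold, against 0.951% of all 18193 genes. An unadjusted limma p under 0.05 was found for 13 of the 76, beside 5963 of all 45037 probe sets. Over all 18193 genes the median difference was 0.12, and 60.7% of differences lay above 0. Groups were separated upwards in 13.5% of all genes and downwards in 8.20%, the shares against which the counts of each list are given.

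The substrates contained the brightest genes with lower values. Of 10 genes of hyalectans, link proteins and their partners, 4 had all reactive arrays below all non-reactive arrays and 1 had them above, and the median difference was -0.12. Over all genes 8.20% were separated downwards and 13.5% upwards. Bcan encodes brevican, the main brain hyalectan and a substrate of Adamts4. It measured 12.52 ± 0.09 in the non-reactive and 10.66 ± 0.70 in the reactive arrays (SD, n = 3), a difference of -1.87 (SE 0.36, limma adjusted p = 0.0859), and its 2 probe sets were alike. Dag1, the dystroglycan gene, differed by -1.48 (SE 0.33, limma adjusted p = 0.117), and Ncan, neurocan, by -0.72 (SE 0.25, limma adjusted p = 0.297), although the 3 Ncan probe sets ran from -1.47 to 0.45. Hapln1, a link protein picked with its values known, showed -2.24 (SE 0.65), but by -0.13 at another of its 4 probe sets.

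Among 14 other Mmps the median difference was 0.20, with 8 of the 14 dim and 1 gene separated in each direction. The membrane-type enzymes Mmp24, Mmp16 and Mmp17 were the brightest and differed by -0.18, -0.37 and 0.54, although the 3 probe sets of Mmp24 ran from -0.18 to 0.77. Mmp13, a collagenase chosen after its values were seen, read 6.34 in reactive replicate 3 and 2.26 to 2.72 in the other 5 arrays. That is the array with the high Timp1 and collagen values. Mmp11, also chosen afterwards, was the gene separated downwards, with a difference of -0.84 (SE 0.24, limma adjusted p = 0.217).

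Of 19 other Adamts and Adamtsl genes, 10 were dim. Differences lay above 0 in 18, beside 60.7% of all genes, with a median of 0.21, and 4 were separated upwards, beside 13.5% of all genes. Adamts16, Adamts8 and Adamts10 were the brightest, at differences of 0.28, 0.31 and 0.43. Of 14 Adam genes, which encode membrane sheddases and adhesion proteins, 12 lay above 0 and 4 were separated upwards, beside the same 60.7% and 13.5%. Adam10, a sheddase of Notch and many surface proteins, differed by 1.38 (SE 0.55, limma adjusted p = 0.354) at its brightest probe set and by -0.20 at another. Adam15 differed by 0.32 and Adam9 by 0.06. Adam8, a myeloid sheddase picked with its values known, showed 1.49 (SE 0.36, limma adjusted p = 0.139). Adam17, which Timp3 inhibits, differed by 0.08 at its brightest of 3 probe sets and by 1.17 at the highest.

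Of 19 regulators and activators, 8 were dim. Groups were separated upwards in 4, beside 13.5% of all genes, and downwards in 0, beside 8.20%, at a median of 0.25. Lrp1, the endocytic receptor that clears proteases and Timps, differed by -0.53 at its brightest probe set and by -2.28 at the other. Plat, the tissue plasminogen activator, differed by 1.09 at its brightest probe set and by -0.32 at the other. Rhbdf1 differed by -0.57. Genes chosen after their values were seen were Plaur, the urokinase receptor, at 1.71 (SE 0.51, limma adjusted p = 0.232), and Cd44, a hyaluronan receptor that docks Mmp9, at 2.32 (SE 0.69, limma adjusted p = 0.228). The 4 probe sets of Cd44 ran from -0.15 to 2.32. Reck, a membrane-anchored Mmp inhibitor also chosen afterwards, differed by -1.28, with reactive values of 5.75, 3.98 and 3.85 and non-reactive values of 5.30, 6.14 and 5.99.

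**Figure D5:**
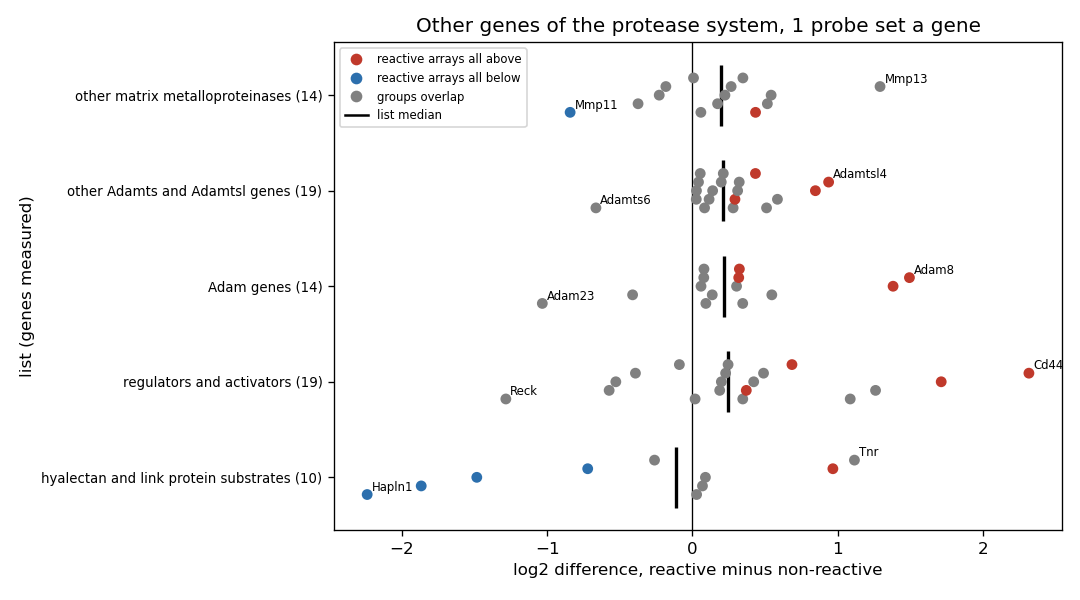
Log2 difference (horizontal axis), reactive minus non-reactive, of 76 other genes of the protease system in 5 lists (vertical axis), 1 point a gene at its brightest probe set, with the list median as a black bar and the outermost genes named. Red or blue points had groups that did not overlap, as 4 of the 10 substrate genes did downwards, and 0 of the 76 passed the whole-table threshold.

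The genes most like Timp3 over the 6 arrays were Adhfe1, Nat8f3, Ccn1, F3 and Soga3. Likeness was the root mean square difference from probe set 1449335_at after each gene's own mean was subtracted, over 18183 genes, and it ran from 0.65 to 0.84 log2 units. For Timp1 they were Clec4d at 0.23, Csf2rb at 0.44, F13a1 at 0.47, Emp3 at 0.56 and Cd5l at 0.57. Clec4d, like Timp1, differed by 3.71. Since likeness was taken over these same 6 arrays, a similar group difference was part of the choice and shows nothing further.

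Of the 4 inhibitors, 3 lie inside the span of a synapsin gene in the RefSeq table: Timp1 inside Syn1, Timp3 inside Syn3 and Timp4 inside Syn2. The host genes did not share the differences of their inhibitors. Syn1 differed by -0.50 (SE 0.50), Syn3 by -0.16 (SE 0.63) and Syn2 by 0.63 (SE 0.41), all with overlapping groups. These hosts were looked up after the values of the members were known.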

How the data were processed

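The authors deposited log2 expression values, and the submitters' processing notes name RMA, the robust multi-array average. Its version and settings were not given in the sources used here. In its usual form RMA equalises the distributions of the arrays, which hides changes in total RNA. The 6 array medians lay between 4.65 and 4.73. RNA was amplified and biotin-labelled in a 2-cycle protocol, per the labels' protocols.

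From 45101 rows, 64 control probe sets were left out, and 45037 were tested. The platform annotation gave 1 gene symbol for 34945, several for 932 and none for 9160. Gene identifiers of 34741 matched a RefSeq table of GRCm38.p6, used for names, promoters and overlaps of genes. The contrast of reactive with non-reactive cells was estimated by limma 3.58.1 (lmFit, then eBayes; R 4.3.3) from the 6 arrays and no covariate. Two-sided p-values were adjusted by Benjamini-Hochberg across the 45037 probe sets, and 0.05 was the threshold. Errors are moderated standard errors. The number of arrays limits the precision, and p-values measure the spread between pools of cells. The fit was tested on simulated data.

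The members, lists and tests were chosen with earlier results of these data known. The text names every member and, from each other list, up to 4 called genes and the 3 brightest others, and up to 3 called genes of each marker list. For Timp1 and Timp3 it names the 5 most similar genes. Genes outside this rule are marked as chosen after their values were seen. Bright genes named to check the cell types were also chosen afterwards, as were Ccr2, Ngp, Ltf, Camp, S100a8, S100a9, Col1a1, Col1a2, Col3a1 and Adam17. So were Gja1, Pdgfrb, Rgs5, Cx3cr1, P2ry12, Itgam, Mog and Slc17a7. Alternatives were other scalings and variance models, filters on dim or cross-hybridising probe sets, gene means, a replicate block and leaving out each array.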

Additional observations from a re-analysis of the deposited data

How the results depend on the processing

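Numbers of calls depended on the arrays in the fit. With 383 of 45037 probe sets and 1 of the 24 member probe sets called by limma, the counts with the replicate number as a block were 1 and 0, with 5128 probe sets and 9 members at an unadjusted p under 0.05. Leaving out 1 array gave 1 to 173 probe sets and 0 to 1 members. A variance trend and the removal of dim probe sets each called 2 members, the second being Timp2. The other scalings and filters called 262 to 403 probe sets and 1 member. Of the other genes 0 were called under any alternative run, with 76 tested, or 48 without dim probe sets and 73 without cross-hybridising ones. Of these genes, 9 to 20 had an unadjusted limma p under 0.05. In the fits of all 45037 probe sets, 4162 to 6354 probe sets did. No pairing by replicate number was visible in the values: deviations of same-numbered arrays correlated at -0.07, -0.11 and 0.04, and 0 of the 3 correlated best with its own number. With 3 arrays a group, these correlations cannot show whether same-numbered arrays were handled together. Of the 24 member probe sets, 18 kept their sign in all alternatives run, and the 6 that did not were all of proteases. In these alternatives, none of the 24 moved by more than the spread between replicates. Variance models, filters and the block cannot change a probe set's difference, so only the other scalings and the left-out arrays could turn a sign. Averaging the probe sets of each gene moved Timp3 from -4.70 to -2.25, Timp2 from 2.28 to 0.81, Timp4 from -1.88 to -1.17 and Mmp9 from 0.02 to -0.13. The deposited values allow no other background correction. With 3 pools a group and 1 reporter line in each, moderate differences, such as those of Adamts4, were not resolved.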
